A study of Mus musculus with 6 samples.

Results

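Igkv segments, the germline variable gene segments of the mouse immunoglobulin kappa light chain, were measured in RNA from splenic CD8+ T cells of mice on either of 2 diets. All rows of the normalized count table whose gene symbol starts with Igkv were taken, which gave 102 of 19323 genes. The animals were C57BL/6 mice, WT in every group, that were 6 weeks old at the start and received ND or MCDHFD for 7 weeks, a mouse model of MASH (inflamed fatty liver) per the labels. Each diet had 3 libraries. How the cells were isolated, and whether each replicate was a different animal, is not in the labels. The p-values below therefore reflect the variation among these 6 libraries, part or all of which may be technical.

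A kappa light chain is made when a developing B cell joins an Igkv segment to a short joining segment, Igkj, and the joined exon is spliced to the constant exon, Igkc. The locus makes most light chains in the mouse, and the lambda locus (Iglv, Iglj and Iglc) makes the rest. Mature B cells express a modest amount of the rearranged message, whereas plasma cells, the antibody-secreting end stage, fill much of their RNA with it. CD8+ T cells rearrange T cell receptor genes instead. In an RNA-seq table, the level of an Igkv row therefore combines how many cells chose that segment with how much RNA each of them made. In bulk samples more cells of a type and more RNA per cell cannot be told apart.

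The 102 rows lie on chromosome 6 between 67555497 and 70704177 (mm10), on the side of Igkc (70726435 to 70726966) where the gene order runs V, J, C. Of these segments, 39 are on the plus strand and 63 on the minus strand, so that joining deletes the intervening DNA for the first and inverts it for the second. GENCODE M21 annotates 160 Igkv genes, among them 60 pseudogenes, of which 6 are in the table. The rows fall into 18 V families by the number after Igkv in their symbol. Each row's exons span 298 to 501 bases.

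The last bases of a V segment encode the germline part of the third complementarity-determining region (CDR3), the loop where V meets J and where much of the contact with antigen is made. They are shown for the 10 segments of the highest mean level and for 4 others that the results turn on. Capitals run from the codon of the conserved cysteine to the end of the segment, and the lower-case bases before them are the end of framework 3. All sequences are the reference sense strand, 5′ to 3′, read from the GENCODE M21 transcripts, not from the libraries.

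Igkv10-96 (chr6:68631963-68632003, minus strand): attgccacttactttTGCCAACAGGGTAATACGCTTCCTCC
Igkv1-110 (chr6:68271227-68271267, plus strand): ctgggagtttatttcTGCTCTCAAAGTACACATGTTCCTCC
Igkv1-117 (chr6:68121787-68121827, plus strand): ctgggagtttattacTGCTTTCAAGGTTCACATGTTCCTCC
Igkv14-111 (chr6:68256829-68256869, plus strand): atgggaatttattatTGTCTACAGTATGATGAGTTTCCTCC
Igkv8-21 (chr6:70314895-70314932, minus strand): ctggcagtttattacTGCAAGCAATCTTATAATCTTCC
Igkv5-39 (chr6:69900424-69900464, minus strand): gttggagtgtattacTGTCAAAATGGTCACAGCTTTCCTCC
Igkv6-23 (chr6:70260409-70260449, minus strand): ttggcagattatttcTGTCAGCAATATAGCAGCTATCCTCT
Igkv4-59 (chr6:69438218-69438260, minus strand): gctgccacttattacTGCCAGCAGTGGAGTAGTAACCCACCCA
Igkv1-135 (chr6:67610468-67610508, plus strand): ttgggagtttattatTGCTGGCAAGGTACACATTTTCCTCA
Igkv15-103 (chr6:68437885-68437925, plus strand): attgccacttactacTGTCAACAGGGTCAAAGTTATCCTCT
Igkv3-4 (chr6:70672337-70672377, plus strand): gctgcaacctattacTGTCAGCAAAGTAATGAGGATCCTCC
Igkv1-88 (chr6:68862265-68862305, minus strand): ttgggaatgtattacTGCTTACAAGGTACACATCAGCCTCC
Igkv7-33 (chr6:70058632-70058672, minus strand): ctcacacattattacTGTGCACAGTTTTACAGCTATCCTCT
Igkv6-32 (chr6:70074024-70074064, minus strand): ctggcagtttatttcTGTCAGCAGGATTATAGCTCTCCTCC

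The capital part is 26 bases long in 12 of these 14 segments. It is 23 bases in Igkv8-21, which stops a codon earlier, and 28 bases in Igkv4-59. Segments of one family can be nearly identical upstream of this stretch, which bears on how reads are assigned. Igkv1-117 and Igkv1-110, both among the most abundant, share 96.8% of their V exon, with 10 mismatches over 313 bases. The last 300 bases of each exon, which hold all 10 mismatches, are shown with capitals in Igkv1-110 where it differs from Igkv1-117.

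Igkv1-117 (chr6:68121528-68121827, plus strand): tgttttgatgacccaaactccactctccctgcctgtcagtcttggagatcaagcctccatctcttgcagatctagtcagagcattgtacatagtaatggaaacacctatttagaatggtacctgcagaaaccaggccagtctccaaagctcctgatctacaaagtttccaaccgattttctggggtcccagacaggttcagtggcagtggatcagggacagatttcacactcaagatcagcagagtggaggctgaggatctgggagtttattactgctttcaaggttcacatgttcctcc
Igkv1-110 (chr6:68270968-68271267, plus strand): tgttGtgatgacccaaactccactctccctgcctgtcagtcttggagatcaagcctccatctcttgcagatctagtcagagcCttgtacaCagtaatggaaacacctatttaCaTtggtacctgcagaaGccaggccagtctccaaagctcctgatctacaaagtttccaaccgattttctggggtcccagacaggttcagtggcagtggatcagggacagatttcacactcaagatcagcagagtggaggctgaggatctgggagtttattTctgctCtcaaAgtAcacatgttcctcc

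Igkv10-96 and Igkv10-94 share 94.6% of their V exon, with 16 mismatches over 298 bases. Capitals in Igkv10-94 mark the differences from Igkv10-96, several of which lie in the CDR3 end.

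Igkv10-96 (chr6:68631963-68632260, minus strand): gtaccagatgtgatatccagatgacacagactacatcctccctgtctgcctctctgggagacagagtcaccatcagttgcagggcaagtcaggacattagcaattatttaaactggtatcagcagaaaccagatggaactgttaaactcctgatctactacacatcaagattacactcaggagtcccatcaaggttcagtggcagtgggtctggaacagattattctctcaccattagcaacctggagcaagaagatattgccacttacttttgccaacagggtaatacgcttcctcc
Igkv10-94 (chr6:68704508-68704805, minus strand): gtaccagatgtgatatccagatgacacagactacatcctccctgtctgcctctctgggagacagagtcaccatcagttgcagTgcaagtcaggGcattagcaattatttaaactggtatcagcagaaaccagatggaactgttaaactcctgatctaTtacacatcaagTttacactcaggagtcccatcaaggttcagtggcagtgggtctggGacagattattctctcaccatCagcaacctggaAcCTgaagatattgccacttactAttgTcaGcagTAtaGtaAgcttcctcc

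Because of such pairs, and because rearranged segments can carry somatic mutations, the values of single segments are uncertain where the authors' counting could split or drop reads. Of the segments with a coding sequence, 47 of 96 had at least 75% of the 50-base windows of their transcripts found in no transcript of another Igkv gene. By this measure 49.1% of the windows of Igkv1-110 were unique, 50.1% of those of Igkv1-117, 67.4% of those of Igkv10-96 and 100% of those of Igkv1-88.

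Summed over the 102 rows, Igkv RNA was higher in every MCDHFD library than in any ND library. The sums were 2319, 2315 and 2097 normalized counts in ND replicates 1, 2 and 3, and 6343, 8950 and 8497 in MCDHFD replicates 1, 2 and 3. The means were 2244 ± 127 and 7930 ± 1393 (SD, n = 3 per diet), a ratio of 3.53, and ratios of single libraries ran from 2.73 to 4.27. As a share of all normalized counts, Igkv went from 0.0158% to 0.0541%, so these segments were a minor part of the RNA in both diets. No test was run on the sum, because the members were chosen with earlier results of these data known. With the CD8 T cell identity genes held equal in all libraries, a scaling under which the median over all genes moves from 0.00 to 1.04 on the log2 scale, the log2 ratio of the sums was 2.88 in place of 1.82.

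Igkc, the only kappa constant gene, rose by about the same factor. Its levels were 2909, 2899 and 2613 normalized counts in the ND replicates and 8124, 10125 and 11257 in the MCDHFD replicates (log2 fold change 1.80, SE 0.11, limma adjusted p = 1.92e-06). The ratio of summed Igkv to Igkc counts was 0.797, 0.799 and 0.803 in ND and 0.781, 0.884 and 0.755 in MCDHFD. The ND ratios had an SD of 0.00286, and the MCDHFD ratios fell on either side of them. The 5 Igkj rows, which are very short and were below the test's minimum, summed to 19.6 ± 1.55 in ND and 15.3 ± 2.40 in MCDHFD, with overlap.

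**Figure D1:**
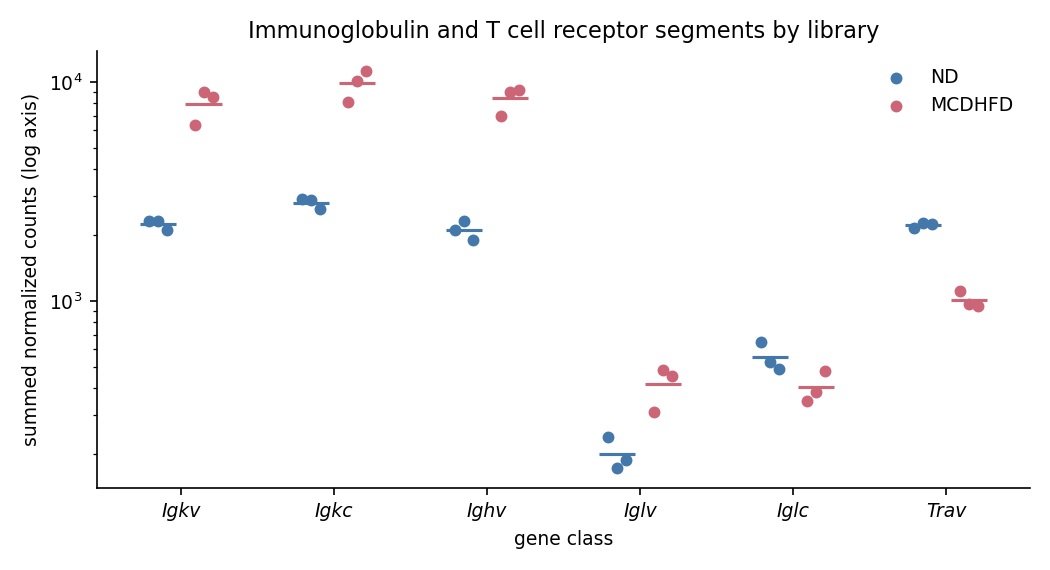
Summed normalized counts (log axis) of each gene class in the 6 libraries: points are libraries, in the order of replicates 1 to 3 within each diet, and bars are means of 3. Igkv, Igkc and Ighv sit at or above 6343 in all MCDHFD libraries and at or below 2909 in all ND libraries, while Iglc and the T cell receptor class Trav are lower in MCDHFD.

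The variable segments of the heavy chain, Ighv, were also higher in all MCDHFD libraries. Their 108 rows summed to 2094, 2306 and 1902 normalized counts in ND and to 7015, 9022 and 9161 in MCDHFD, a ratio of means of 4.0. The ratio of summed Igkv to summed Ighv was 1.11, 1.0 and 1.10 in the ND replicates and 0.904, 0.992 and 0.928 in the MCDHFD replicates, so kappa V counts were lower relative to heavy chain V counts in MCDHFD without overlap. In ND replicate 2 and MCDHFD replicate 2 these ratios were nearly equal. The Trav segments of the T cell receptor alpha chain went the other way, from 2219 ± 57.9 to 1006 ± 84.5 over 76 rows. Igkv counts were thus close to Trav counts in ND (ratios of 1.08, 1.02 and 0.936) and well above them in MCDHFD (5.75, 9.27 and 8.95).

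In the lambda light chain, the summed V segments were higher in MCDHFD by less than kappa, and the summed constant genes were lower. Iglv1 rose from 106 ± 28.3 to 269.5 ± 61.0 normalized counts (log2 fold change 1.35, limma adjusted p = 0.000739), but Iglv2 (0.70, limma adjusted p = 0.0528) and Iglv3 (0.28) did not pass the test. Of the lambda constant genes, Iglc2 fell from 373.0, 303.5 and 296.9 in ND to 161.9, 177.9 and 181.2 in MCDHFD (log2 fold change -0.89, limma adjusted p = 0.000198). Iglc1 (0.49) and Iglc3 (-0.70, limma adjusted p = 0.0528) did not pass. The constant genes of lambda are similar copies, and so are Iglv1 and Iglv2, so their single values are uncertain. Kappa (Igkv plus Igkc) made up 85.5%, 88.2% and 87.4% of all light chain V and C counts in ND and 95.6%, 95.6% and 95.5% in MCDHFD. The summed Iglv counts were 2.09-fold higher and the summed Iglc counts were 0.730 times as high in MCDHFD, both without overlap. For Iglc the gap was narrow, with sums of 648.1, 524.3 and 489.9 in ND and 350.1, 384.3 and 478.7 in MCDHFD.

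Of the 102 segments, 71 had a mean of at least 10 normalized counts over the 6 libraries and were tested. Of these, 61 rose and none fell in limma at an adjusted p under 0.05, and none was lower at an unadjusted p under 0.05. Across all 13430 tested genes, 30.3% rose and 28.1% fell. The edgeR test on recovered reads of 5 libraries called 58 Igkv segments higher and DESeq2 59, and neither called any lower. Over all tested genes edgeR called 3687 higher and 3449 lower. The log2 fold changes, on the scale of log2(value + 1), ran from 0.09 to 5.28 with a median of 1.90, where all tested genes had a median of 0.00. Their standard errors were 0.12 to 0.89. A log2 fold change of at least 1 was reached by 59 of the segments that rose, against 13.1% of all tested genes. The levels of 59 segments were higher in MCDHFD without overlap between the diets, and none was lower without overlap, against 33.2% and 32.3% of all tested genes. With the CD8 T cell identity genes held equal, 71 of 71 segments were higher, with a median of 2.87, while 11204 of all 13430 tested genes (83.4%) were higher and 449 (3.34%) lower, in place of 4065 and 3772. Members that are high in only 1 diet pass the minimum through that diet, so these counts do not stand for all 102.

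**Figure D2:**
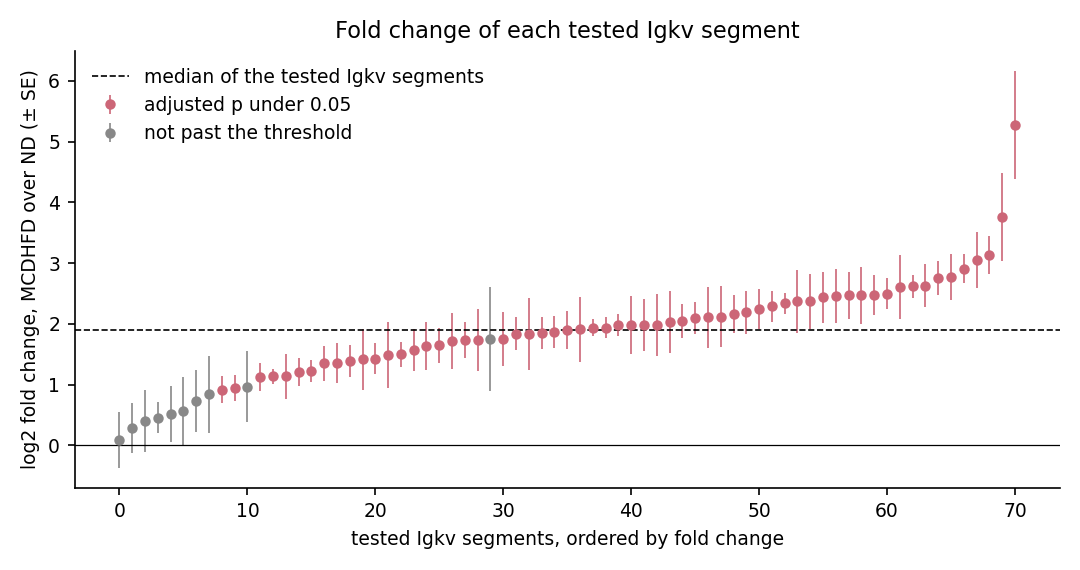
Log2 fold change (MCDHFD over ND, ± SE) of the 71 tested Igkv segments, ordered from lowest to highest: red points passed limma's adjusted p of 0.05 and grey points did not. All 71 points lie above 0, the dashed line marks the median of 1.90, and the 10 grey points are mostly at the low end.

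The 31 untested segments were low in every library, with a highest mean of 9.40 normalized counts. The mean of 21 of them was higher in MCDHFD. Together they summed to 63.6, 56.4 and 52.5 in ND and to 90.3, 151 and 128 in MCDHFD. The 6 pseudogenes, which cannot give a working light chain, summed to 5.55 ± 2.98 in ND and 4.51 ± 3.43 in MCDHFD, with overlap. In all, 77 of the 102 rows were above 0 in all 6 libraries.

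Igkv10-96 (ENSMUSG00000094420) had the highest mean level. It was measured at 107, 86.6 and 111 normalized counts in the ND replicates and at 305, 606 and 658 in the MCDHFD replicates (log2 fold change 2.29, SE 0.26, limma adjusted p = 9.6e-05). The diets did not overlap, and MCDHFD replicate 1 was lower than the other MCDHFD libraries. Igkv1-110 (ENSMUSG00000093861) was measured at 100.8, 118 and 110 in ND and 353, 488 and 433 in MCDHFD (log2 fold change 1.94, SE 0.14). Its near relative Igkv1-117 (ENSMUSG00000094335) went from 129, 160 and 132 to 295, 332 and 298 (log2 fold change 1.14, SE 0.12). Igkv1-117 was thus above Igkv1-110 in every ND library and below it in every MCDHFD library. Only 49.1% and 50.1% of their 50-base windows are unique, and how the counting treated reads that fit both is not known.

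The segments next in abundance also rose. Igkv14-111 was measured at 43.1, 42.8 and 71.3 normalized counts in ND and at 232, 457 and 403 in MCDHFD (log2 fold change 2.76, SE 0.28). Igkv8-21, whose shown CDR3 end is the shortest, was measured at 52.9, 59.3 and 46.5 in ND and at 253, 413 and 339 in MCDHFD (2.62, SE 0.19). The values of Igkv6-23 were 49.9, 43.8 and 45.5 in ND and 142, 347 and 369 in MCDHFD (2.48, SE 0.33). MCDHFD replicate 1 was the lowest of its diet for each of these 3 segments. Igkv5-39 was not lowest there: its values were 35.2, 72.0 and 80.2 in ND and 313, 196 and 308 in MCDHFD (2.16, SE 0.31). The other segments among the 10 most abundant were Igkv4-59 (log2 fold change 1.98), Igkv15-103 (2.10) and Igkv1-135 (0.95), all past the test and without overlap. Per kilobase of exon, the mean levels in ND were 347 for Igkv1-117, 292 for Igkv3-4, 282 for Igkv10-96 and 273 for Igkv1-110. In MCDHFD the highest per kilobase were 1457 for Igkv10-96, 1058 for Igkv1-110, 988 for Igkv14-111 and 877 for Igkv8-21.

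The highest fold changes belonged to segments of low level in ND. The ND means of Igkv7-33, Igkv4-80 and Igkv4-57-1 were 3.89, 4.25 and 9.83 normalized counts, under the minimum of 10. These segments were tested only because of their MCDHFD levels, so their calls are not independent of how they were chosen. The same holds for Igkv6-20, Igkv4-63, Igkv5-45, Igkv12-98, Igkv1-122, Igkv4-70, Igkv10-95, Igkv4-69, Igkv4-58, Igkv12-89, Igkv3-1 and Igkv6-14, which were all called higher. It holds also for Igkv4-50, which was not called. Igkv7-33, the only row of its family, was at 0 in ND replicates 1 and 3, at 11.7 normalized counts in ND replicate 2, and at 68.7, 86.5 and 120 in the MCDHFD replicates. Its log2 fold change was 5.28 (SE 0.89, limma adjusted p = 0.000921). It was 6.50 without ND replicate 2, 4.66 without ND replicate 1 or 3, 5.95 and 3.66 with pseudocounts of 0.5 and 5, 3.92 with edgeR and 3.97 with DESeq2, so its size is poorly fixed. Igkv4-80 was measured at 9.79, 0.973 and 1.98 in ND and at 21.6, 82.6 and 82.8 in MCDHFD (log2 fold change 3.76, SE 0.72), with 4.48 without ND replicate 1, 4.39 without MCDHFD replicate 1, 3.25 without ND replicate 2 and 2.79 with a pseudocount of 5. Igkv6-32 was measured at 19.6, 8.76 and 21.8 in ND and at 142, 142 and 151 in MCDHFD (3.14, SE 0.31). Igkv3-2 was measured at 15.7, 19.5 and 17.8 in ND and at 192, 115 and 122 in MCDHFD (2.91, SE 0.24). Igkv4-57-1 had a log2 fold change of 3.06 (SE 0.46). The diets did not overlap for any of Igkv7-33, Igkv4-80, Igkv6-32, Igkv3-2 and Igkv4-57-1.

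The lowest fold changes belonged to segments that did not pass the test, and several of them varied among the ND libraries. Igkv3-4 was measured at 41.1, 149 and 126 normalized counts in ND and at 122, 118 and 99.6 in MCDHFD (log2 fold change 0.29, SE 0.41, limma adjusted p = 0.568). Igkv1-88 was measured at 24.5, 101.2 and 84.1 in ND and at 53.6, 71.8 and 66.0 in MCDHFD (0.09, SE 0.46, limma adjusted p = 0.882). For both segments ND replicate 1 was the lowest of the 6 libraries, and without it their log2 fold changes were -0.28 and -0.54. Igkv8-19 was even in ND, at 53.8, 46.7 and 50.5, and was measured at 47.1, 87.5 and 81.7 in MCDHFD (0.46, limma adjusted p = 0.142). Without MCDHFD replicate 1 Igkv8-19 passed, with a log2 fold change of 0.74. Igkv9-124 (0.52) was high in ND replicate 1, at 55.8 against 18.5 and 20.8, and Igkv14-126 (0.40) was high in MCDHFD replicate 2, at 73.7 against 26.4 and 19.0. The other 5 segments that did not pass were Igkv4-61, Igkv3-10, Igkv6-13, Igkv14-100 and Igkv4-50. Together the 10 summed to 358 ± 70.6 in ND and 484 ± 106 in MCDHFD, with overlap.

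Usage, the share of each segment in the Igkv sum of its library, does not depend on the scaling between libraries. No test was run on shares. Of the 71 tested segments, 11 had a higher share in all MCDHFD libraries than in any ND library, 8 had a lower share and 52 overlapped. The minimum was taken over all 6 libraries, so segments high in MCDHFD passed it more easily. Among the untested rows, Igkv4-79, Igkv1-133, Igkv4-90, Igkv9-129, Igkv4-81, Igkv4-92, Igkv3-9 and Igkv2-107 had a lower share without overlap, and Igkv14-130 a higher one. The balance of 11 to 8 therefore does not stand for all 102 rows. Among 77 Ighv segments, taken with the same minimum, 14 (18.2%) had a higher and 12 (15.6%) a lower share without overlap. The Igkv numbers, 11 and 8 of 71, were thus no larger than those of Ighv in either direction. The single segments are given as a description. The shares of Igkv1-117 were 5.57%, 6.89% and 6.28% in ND and 4.64%, 3.71% and 3.50% in MCDHFD. Igkv1-135 went from 4.60%, 4.71% and 3.49% to 2.21%, 2.46% and 2.40%. Igkv1-88 went from 1.06%, 4.37% and 4.01% to 0.846%, 0.802% and 0.777%, so that its ND replicate 1 lay near the MCDHFD libraries, and Igkv8-19 from 2.25% ± 0.205 to 0.893% ± 0.131. The other lower shares among the tested segments were those of Igkv2-137, Igkv12-44, Igkv3-12 and Igkv6-17. A lower share of Igkv1-117 or Igkv1-135 stood beside a higher level, since both rose by less than the ratio of the sums.

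The higher shares included 3 of the abundant segments. Igkv14-111 went from 1.86%, 1.85% and 3.40% in ND to 3.65%, 5.11% and 4.74% in MCDHFD. Igkv8-21 went from 2.28%, 2.56% and 2.22% to 3.99%, 4.61% and 3.99%, and Igkv6-23 from 2.15%, 1.89% and 2.17% to 2.24%, 3.88% and 4.34%, where MCDHFD replicate 1 barely cleared ND. Igkv3-2 (0.788% ± 0.098 to 1.92% ± 0.966) and Igkv6-32 (0.754% ± 0.339 to 1.87% ± 0.339) were also higher, as were Igkv7-33, Igkv12-46, Igkv5-43, Igkv4-57-1, Igkv12-41 and Igkv4-63. Igkv10-96, the most abundant segment, had shares of 4.60%, 3.74% and 5.29% in ND and 4.81%, 6.78% and 7.74% in MCDHFD, with overlap. The mean share of Igkv3-4 moved most, by -3.26 percentage points, but its ND replicate 1, at 1.77%, lay inside the MCDHFD range.

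**Figure D3:**
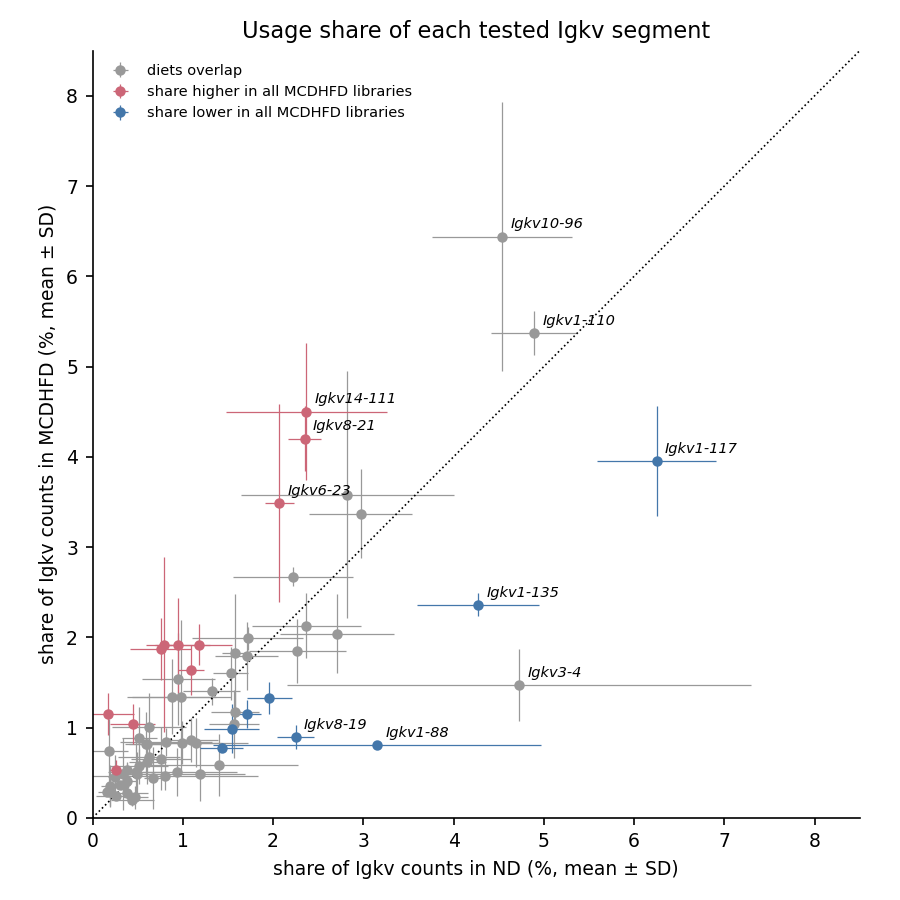
Mean usage share of each tested Igkv segment in ND (x axis, %) and MCDHFD (y axis, %), with bars of ± 1 SD over 3 libraries and a dotted line of equal share: red and blue points mark the 11 higher and 8 lower segments whose diets did not overlap. Igkv1-117 and Igkv1-135 lie below the line and Igkv14-111 and Igkv8-21 above it, and Igkv3-4 and Igkv1-88 have wide horizontal bars.

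By V family, the summed level was higher in all MCDHFD libraries in each of the 18 families. Igkv1, a family of 10 rows that held the largest share in ND, went from 16.6%, 22.4% and 19.9% of Igkv counts to 14.0%, 13.0% and 12.7%, without overlap. Its summed level was still 2.37-fold higher. The shares of Igkv5 (5.20% ± 1.18 to 7.52% ± 0.945), Igkv6 (9.03% ± 0.749 to 10.6% ± 0.543) and Igkv12 (4.61% ± 0.153 to 5.75% ± 0.516) were higher without overlap, as was that of Igkv7, which is Igkv7-33 alone. The remaining 13 families overlapped in share. Igkv4, with 29 rows the largest family, had 17 tested segments of which 15 rose, against 30.3% of all tested genes. Its share was 12.4% ± 2.17 in ND and 14.2% ± 0.729 in MCDHFD.

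Segments that rose lay along the whole locus. The counts by strand and distance stand beside 61 of 71 for all tested Igkv segments and 30.3% for all 13430 tested genes. On the plus strand 23 of 27 tested segments rose, with a median log2 fold change of 1.75 over those tested, and on the minus strand 38 of 44, with a median of 2.0. The share of plus-strand segments was 46.3% ± 1.10 in ND and 40.0% ± 2.78 in MCDHFD, without overlap. Among the 34 rows nearest to Igkc, 22 of 26 tested segments rose. In the middle 34 it was 20 of 23, and in the farthest 34 it was 19 of 22. The share of the farthest rows was 43.8% ± 2.17 in ND and 40.8% ± 0.603 in MCDHFD, without overlap, and the shares of the other 2 sets overlapped. Igkv1-117, Igkv1-135 and Igkv1-110 are plus-strand segments of the farthest set, so the strand, distance and family differences share members and are not separate results.

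**Figure D4:**
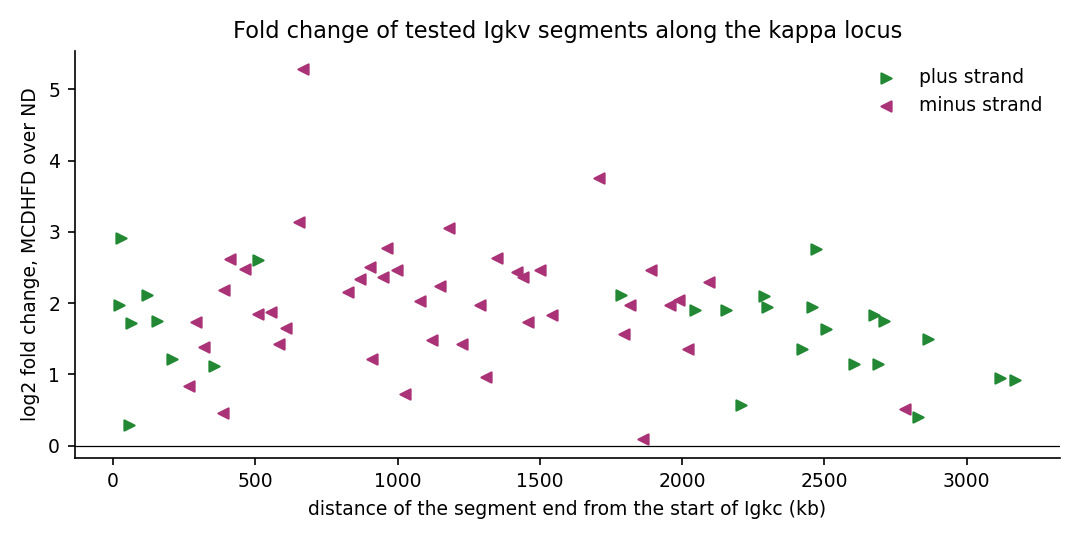
Log2 fold change (MCDHFD over ND) of the 71 tested Igkv segments against the distance of the segment's end from the start of Igkc (kb), with triangles that point right for the plus strand and left for the minus strand. All points lie above 0 at every distance, with Igkv7-33 highest at 5.28.

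The evenness of usage did not separate the diets. Shannon evenness, which is 1 when all detected segments are used alike, was 0.892, 0.873 and 0.872 in the ND replicates and 0.886, 0.887 and 0.870 in the MCDHFD replicates. The means were 0.879 ± 0.0115 and 0.881 ± 0.00917. The effective number of segments, the exponential of the Shannon entropy, was 56.5, 50.3 and 51.0 in ND and 52.8, 53.5 and 52.7 in MCDHFD. Between 88 and 95 segments were above 0 in a library. The 10 most used segments of each library held 36.7%, 42.9% and 42.4% of the counts in ND and 39.8%, 40.1% and 41.3% in MCDHFD. The most used segment was Igkv1-117 in all ND libraries, Igkv1-110 in MCDHFD replicate 1 and Igkv10-96 in MCDHFD replicates 2 and 3, with between 5.56% and 7.74% of the counts.

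Detection depends on depth, and the MCDHFD libraries held more Igkv reads. When the 5 libraries with recovered reads were rarefied to the 2369 Igkv reads of ND replicate 1, the expected number of detected segments was 92.0 and 89.0 in ND replicates 1 and 2, and 83.4, 84.7 and 87.1 in MCDHFD. At that depth fewer segments were thus detected in each MCDHFD library than in either ND library. The rarefied effective numbers, 56.5 and 50.3 in ND and 52.2, 52.8 and 51.9 in MCDHFD, overlapped. For comparison, the effective number of Ighv segments was 56.4 ± 1.31 in ND and 58.2 ± 1.43 in MCDHFD, without overlap.

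**Figure D5:**
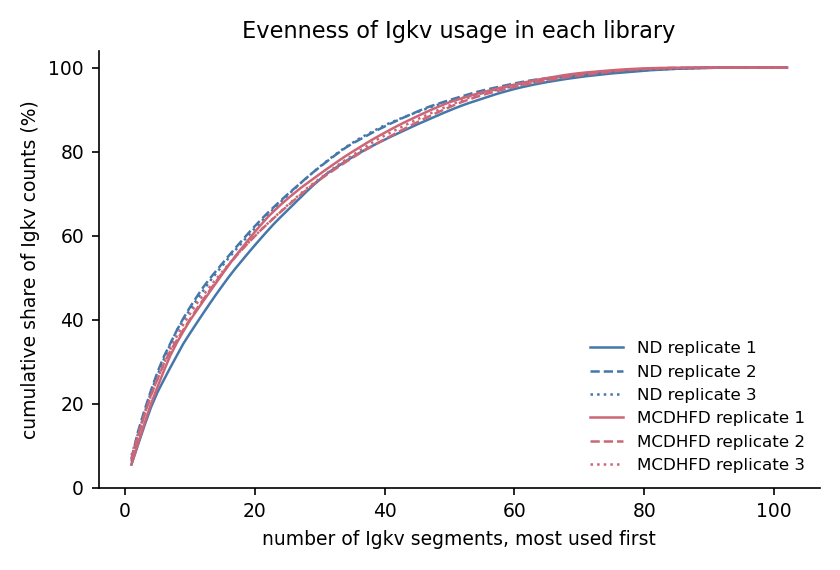
Cumulative share of Igkv counts (%) against the number of Igkv segments, most used first, with 1 line per library (blue ND, red MCDHFD). The lines of the diets interleave, and the first 10 segments hold between 36.7% and 42.9% of the counts.

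By a distance between usage profiles, libraries differed more between diets than within them. The distance between the usage profiles of 2 libraries, given as the percentage points of usage that would have to move to turn one into the other, was 14.7 to 21.8 between ND libraries and 10.5 to 18.1 between MCDHFD libraries. It was 22.8 to 27.7 over the 9 pairs of an ND and an MCDHFD library, so no pair within a diet was as far apart as any pair between diets. ND replicate 1 was the farthest from the other ND libraries, at 20.6 and 21.8. Libraries of the same diet also differed by more than read sampling. The chi-square value per degree of freedom of Igkv reads was 4.98 between ND replicates 1 and 2 and 4.45 to 10.8 between MCDHFD libraries, against 7.57 to 12.7 between diets. These ranges overlapped. For a given difference in usage this value grows with the number of reads. The MCDHFD libraries held 6739, 9106 and 7597 Igkv reads, against 2369 and 2380 in ND replicates 1 and 2. Pairs of unlike depth therefore cannot be compared by it, and it does not decide whether the diets separate. The value of 10.8, for MCDHFD replicates 1 and 2, was above those of ND replicate 1 against each MCDHFD library (7.57, 8.58 and 8.44).

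The label of CD8+ T cells was checked against markers. Cd8a, a chain of the CD8 co-receptor, was present in all libraries but fell from 14172, 13690 and 13491 normalized counts to 5772, 4884 and 5135. All 18 CD8 T cell identity genes fell (median log2 fold change -1.02), from a summed 113014 to 114670 in ND to 53839 to 60792 in MCDHFD. Of 14 macrophage genes, 12 rose and 1 fell, and their sum was 45361 to 54057 in ND and 210905 to 259669 in MCDHFD. Neutrophil genes rose in 9 of 11, with sums of 1609 to 2323 and 9813 to 16780, and erythroid genes in 11 of 11, with sums of 3834 to 4022 and 15358 to 24350. Of 12 dendritic cell genes 10 were lower and 2 higher past the test, with sums of 57712 to 62015 and 26610 to 27519. That sum mainly follows Cd74, Ccr7, H2-Ab1 and H2-Aa, with ND means of 22629, 16304, 9820 and 8008, and not the list as a whole. Of all tested genes, 30.3% rose and 28.1% fell. With the CD8 T cell identity genes held equal on average, 6 of them were higher and 8 lower. Under that scaling 13 macrophage, 11 neutrophil, 11 erythroid and 3 dendritic cell genes were higher. There 9 dendritic cell genes and none of the other 3 lists were lower, against 83.4% higher and 3.34% lower of all tested genes. The part of macrophages, neutrophils, erythroid cells and dendritic cells in the Igkv levels was not tested.

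Genes of mature B cells went the opposite way to Igkv. Of 23 B cell genes, none rose and 21 fell, against 30.3% and 28.1% of all tested genes. Their median was -1.47 on the log2 scale, and the list's sum was 16991 to 19710 normalized counts in ND and 8327 to 8673 in MCDHFD. Cd79a, a signalling chain of the B cell receptor, was measured at 1289, 1133 and 1034 in ND and at 279, 308 and 329 in MCDHFD (log2 fold change -1.91, limma adjusted p = 7.85e-07). Cd37, a tetraspanin, fell (-0.88), as did Ralgps2 (-0.74). Ms4a1 (-2.67), which encodes CD20, fell too, but was above 0 in all libraries. Btla and Bank1 did not pass. With the CD8 T cell identity genes held equal, 4 of the 23 were higher and 13 lower, where 83.4% of all tested genes were higher and 3.34% lower.

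Of 17 tested plasma cell genes, 6 rose and 4 fell, with a median of 0.04 on the log2 scale, and the list's sum was 15479 to 15641 normalized counts in ND and 14354 to 17253 in MCDHFD. Over all tested genes 30.3% rose and 28.1% fell, so these counts are near the background. Jchain, which links secreted IgA and IgM, was measured at 609, 654 and 588 in ND and at 749, 1744 and 1010 in MCDHFD (log2 fold change 0.83, limma adjusted p = 0.0188). Xbp1, a transcription factor of the secretory programme, rose from 1482 ± 110 to 2327 ± 155 (0.65, limma adjusted p = 8.06e-05), and Prdm1, which drives plasma cell differentiation, from 92.5 ± 8.26 to 264 ± 45.9 (1.49, limma adjusted p = 4.05e-05). Slpi (1.35), Fkbp11 (1.22) and Txndc5 (0.69), an ER protein disulfide isomerase, also rose. Irf4, a factor shared with activated T cells, fell (-1.67), and so did Pou2af1 (-1.12), Ly6c2 (-0.88) and Glcci1 (-1.17). Edem1 (0.04), Mzb1 (-0.11), Derl3 (0.62) and Sdc1 (0.78), the plasma cell surface marker CD138, did not pass. Without ND replicate 3 the number that rose was 3, and with the CD8 T cell identity genes held equal 12 were higher and 1 lower, against 83.4% and 3.34% of all tested genes. Several of these genes are expressed by T cells or macrophages as well, so the list does not follow plasma cells alone.

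Heavy chain constant genes differed by isotype. Ighd, the IgD gene of naive B cells, was measured at 1394, 1222 and 1061 normalized counts in ND and at 295, 328 and 299.8 in MCDHFD. Ighm, which is made by naive B cells and by IgM-secreting cells, was 12576 ± 240.0 in ND and 16685 ± 1225 in MCDHFD. The 4 Ighg rows, of class-switched IgG, summed to 610, 615 and 553 in ND and to 9084, 12028 and 13160 in MCDHFD, a ratio of 19.3. Igha was 3.17-fold higher. The Igkv ratio of 3.53 lay between those of Ighm (1.33) and Ighg, and near those of Igha and Ighv.

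Genes that act before or during kappa rearrangement were measured next. Rag1, which encodes a subunit of the recombinase, was at 0 in all MCDHFD libraries and at most 1.95 normalized counts in ND. The surrogate light chain gene Vpreb1 was at 0 in all MCDHFD libraries and at 6.85, 4.86 and 2.97 in ND, and Vpreb2 was at 0 in all MCDHFD libraries. Of 11 tested V(D)J recombination genes none rose and 5 fell, with a median of -0.34 on the log2 scale, against 30.3% and 28.1% of all tested genes. Those that fell were the DNA-PK catalytic subunit gene Prkdc (-1.11), the polymerase genes Polm (-0.80) and Poll (-0.77), the terminal transferase gene Dntt (-0.89) and Xrcc4 (-0.45). Hmgb1 (0.10), Dclre1c (0.17), Xrcc6 (0.13) and the other 3 did not pass. Of 5 tested pre-B genes 1 rose, Cd93 (0.88), and 4 fell, among them Il7r (-0.43), which T cells also use. With the CD8 T cell identity genes held equal, 8 of the 11 recombination genes and 3 of the 5 pre-B genes were higher and none lower, where 83.4% of all tested genes were higher. Of 8 tested germinal centre genes, Mki67 (1.11) and Mef2b (1.84) rose and Bcl6 (-0.79) and Gcsam (-2.42) fell. Under equal CD8 T cell identity 6 of these 8 were higher and 1 was lower, against the same 83.4%.

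Of 16 transcription factors that bind kappa promoters or enhancers, 1 rose and 10 fell (median log2 fold change -0.41), against 30.3% and 28.1% of all tested genes. The one that rose was Spi1 (1.49), which encodes PU.1 and is also a macrophage factor. Among those that fell were Pou2f2 (-0.45) and its coactivator Pou2af1 (-1.12), which act on the octamer of V promoters, and Spib (-3.05), Ebf1 (-1.02) and Pax5 (-2.67). Pax5 was uneven in MCDHFD, at 47.1, 325 and 319 against 1233, 1078 and 972 in ND. With the CD8 T cell identity genes held equal, 10 of the 16 were higher and 3 lower, against 83.4% and 3.34% of all tested genes. Of 13 tested genes for light chain folding in the ER, 4 rose and 2 fell (median 0.06), where 30.3% of all tested genes rose. Ppib (0.24), Pdia3 (0.43), Sdf2l1 (0.71) and Pdia6 (0.40) rose, and Dnajb9 (-0.41) and Pdia4 (-0.28) fell. The chaperone genes Hspa5 (-0.09), whose protein binds unassembled light chains, and Hsp90b1 (0.16) did not pass. With the identity genes held equal, 13 of the 13 were higher, where 83.4% of all tested genes were.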

How the data were processed

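Total RNA from splenic CD8+ T cells went into libraries made by either of 2 kits (whole RNA or mRNA), according to the labels. The kit of each library, the aligner, the counter and the strand setting were not given in the sources used here. Reads were placed on mm10, per the submitters' processing notes. The deposited values are a signal that the authors made by scaling read counts, per the file headers. In all 6 libraries 100% of values were whole multiples of the smallest value above 0 (tolerance 0.01). In ND replicate 3 that value, 0.990, was too near 1 for the check of the unit used here, so its reads were not taken as recovered. Count tests used the other 5 libraries (13188812 to 15482458 reads each). Normalized totals were 14119816 to 14752121.

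Symbols were matched for 19202 of 19323 identifiers. Genes with a mean of at least 10 were fitted on log2(value + 1) with limma 3.58.1 (R 4.3.3). The fit used an intensity trend, diet as the only term and Benjamini-Hochberg over 13430 genes at a threshold of 0.05. Averages of log2(value + 1) can understate or overstate the change of low genes. Pairs of libraries of the same diet differed beyond sampling noise (chi-square per degree of freedom 6.55 to 12.5). The script was tested on simulated data. Igkv segments were named by level (10 highest), fold change (5 highest, 5 lowest) and share (5 up, 5 down). Outside Igkv the named genes were kappa, lambda and Ighm genes and at most 4 genes of each list by mean level. Segments and genes named beyond this, among them the other segments that did not pass or did not overlap in share and most list members with values, were chosen after their values were seen. Members and lists were chosen with earlier results of these data known. Alternatives were pseudocounts, filters, TMM and CD8 identity scaling, the replicate block, a threshold of 0.01, leaving out libraries, and edgeR 4.0.16 and DESeq2 1.42.0. Values of 2 list genes are not reported here.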

Additional observations from a re-analysis of the deposited data

How the results depend on the processing

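The number of Igkv segments that rose was 61. It was 54 to 64 with pseudocounts of 0.5 and 5, with no filter, with TMM scaling, at an adjusted p under 0.01 and with both count tests, and 56 to 63 when each library was left out. It was 71 with the CD8 T cell identity genes held equal. It was 31 at a mean of at least 50, where fewer segments were tested. Among segments with mostly unique 50-base windows (a restriction chosen after seeing the data), 27 of 32 tested rose, beside 61 of 71 for all tested segments. No segment fell under any of these. With the replicate block 61 rose and 0 fell. Over all tested genes, the deviations of same-numbered libraries from their diet means correlated at 0.0365, 0.0621 and 0.00572. The numbers were therefore not taken as pairs.

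The log2 ratio of the summed levels, 1.82, was 2.88 with the identity genes held equal and 1.73 to 1.96 when each library was left out. The evenness difference was -0.00165 to 0.00859, the Igkv to Igkc difference -0.0317 to 0.0328, and the kappa share difference 7.77 to 9.13 points. Tested segments with a higher share without overlap numbered 11 to 20 (20 without ND replicate 1, 19 without MCDHFD replicate 1, 17 without ND replicate 3). Those with a lower share numbered 8 to 13 (13 without ND replicate 1 or MCDHFD replicate 2). Fewer libraries make non-overlap easier.

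Of 331 settings of the fold changes of the 20 named segments and Igkc, 4 changed direction, all in segments that had not passed. They were Igkv1-88 without ND replicate 1 (-0.54) and without MCDHFD replicate 2 (-0.00), Igkv3-4 without ND replicate 1 (-0.28) and Igkv14-126 without MCDHFD replicate 2 (-0.16); the cause was not tested. Over all single-library omissions the 3 segments ran from -0.54 to 0.47, from -0.28 to 0.64 and from -0.16 to 0.79. None of the others lost its call. Igkv reads numbered 2369 to 9106 per library, which limits segments of low level.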
